A study of Homo sapiens with 2 samples.

Results

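ATF4, ATF5, DDIT3, TRIB3, CHAC1, ASNS, DDIT4, VLDLR and STC2 are genes of the ATF4 stress response, and STC1 is the paralog of STC2. Their transcript levels were compared between glioma spheres labelled with a TRIP13 shRNA and a control shRNA. The 10 genes were taken by symbol from the 58735 genes of the deposited expression table. They were selected on FPKM values and ratios already seen in this same comparison, above all the opposite differences of STC2 and of STC1 and DDIT4. Their values below are therefore descriptions, with no test.

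The cells were U87MG, an established human glioblastoma line, kept for a week in stem cell conditions and labelled as glioma spheres. The library labelled TRIP13 shRNA came from cells given a lentivirus against TRIP13, and the control library from cells given the pGIPZ control virus, both kept as stable clones under puromycin. How many clones each library holds is not given in the sources used here. With 1 library in each group, the differences have no replicate check, and every interval covers counting error only.

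ATF4 is the transcription factor at the centre of the integrated stress response. Kinases that sense a lack of amino acids, misfolded protein in the endoplasmic reticulum, viral RNA or a lack of heme phosphorylate the initiation factor eIF2, which lowers general protein synthesis while upstream reading frames in the ATF4 leader allow the ATF4 protein to be made. ATF4 then binds composite C/EBP-ATF elements, often with a C/EBP partner, and drives genes for amino acid supply, tRNA charging and feedback. Several of its targets, STC2, DDIT4 and VLDLR among them, are also known to respond to hypoxia, which glioblastoma cells meet in the tumour core.

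Promoter sequence shows which of the genes hold the letters of that composite element near a start site. RefSeq windows of 300 bases (build GRCh38.p14), 250 before each start and 50 after it, were found for 9 of the 10 genes, 16 windows in all. The composite element was searched as TGATGNAA on both strands. It was found for 2 of the 9 genes, ASNS and CHAC1, and in 3.62% of all 35116 windows. Counted by gene symbol, 4.46% of 27305 symbols had it in at least 1 window. In ASNS, the asparagine synthetase gene, it lay at positions -68 to -61 from a start. In CHAC1, which encodes an enzyme that breaks down glutathione, it lay at positions -209 to -202, on the opposite strand. The next lines show 120 bases of each promoter, 5' to 3' along the gene, with the element in capitals.
ASNS promoter, chr7:97872409-97872528, minus strand: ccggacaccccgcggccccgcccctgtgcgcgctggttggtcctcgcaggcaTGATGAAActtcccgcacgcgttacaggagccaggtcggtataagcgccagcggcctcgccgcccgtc
CHAC1 promoter, chr15:40953242-40953361, plus strand: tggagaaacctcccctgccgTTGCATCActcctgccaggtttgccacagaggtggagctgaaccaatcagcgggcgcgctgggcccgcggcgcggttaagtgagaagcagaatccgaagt

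STC2 and DDIT4 are shown next because their levels differed most, in opposite directions, among the genes with a window. Capitals mark the core letters of hypoxia response elements, ACGTG and GCGTG, searched on both strands.
STC2 promoter, chr5:173328540-173328659, minus strand: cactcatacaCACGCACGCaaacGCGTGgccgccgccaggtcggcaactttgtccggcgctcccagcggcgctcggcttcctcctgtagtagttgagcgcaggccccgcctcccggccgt
DDIT4 promoter, chr10:72273784-72273903, plus strand: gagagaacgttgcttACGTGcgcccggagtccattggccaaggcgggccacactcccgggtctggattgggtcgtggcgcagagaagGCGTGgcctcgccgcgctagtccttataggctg
In the STC2 stretch, which runs from position -245 to -126, 3 matches to GCGTG stood close together, and the first pair overlaps by its end bases. Such overlapping matches were not particular to STC2. They also stood in a TRIB3 window, from -13 to -1, and in VLDLR, from -161 to -153, and neither gene reached the 2-fold limit used below. The DDIT4 stretch, from position -140 to -21, held 1 match to each core. Further DDIT4 matches to GCGTG, at -219 to -215 and at 26 to 30, lay outside it. These letters are short and common. By gene symbol, ACGTG was found for 2 of the 9 genes, beside 24.9% of all symbols, and GCGTG for 8 of the 9, beside 40.6%. In ATF4 the ACGTG match reads on both strands, since the letters overlap their own complement. The palindromic cAMP response element TGACGTCA matched 0 of the 9 genes, beside 2.25% of all symbols. A match is a stretch of letters and not a measured binding site.

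**Figure D1:**
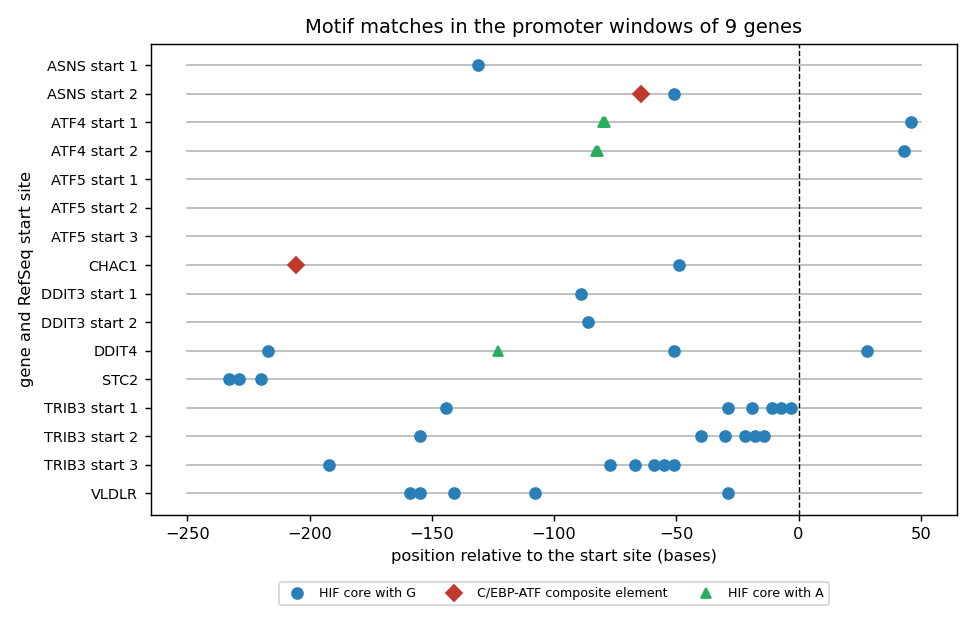
Matches to the C/EBP-ATF composite element (diamonds) and to the hypoxia cores with A (triangles) or G (circles), by position in bases from the RefSeq start site, for 16 windows of 9 genes. The composite element appears in 1 ASNS window and in CHAC1, while the 3 ATF5 windows hold none of these motifs.

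The libraries were deep enough for most of these genes. The library labelled TRIP13 shRNA held 19903836 reads and the control library 18871063. The values are FPKM, fragments scaled to exon length and to a library total. Both libraries were divided by a common total, so ratios carry the depth ratio of 1.055. TRIP13 itself stood at 23.1 FPKM in the library labelled TRIP13 shRNA and 11.9 FPKM in the control library, a ratio of 1.95 (95% counting interval 1.79 to 2.12), against the label. Every direction below is between libraries as labelled.

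The cell identity was checked with markers. Of genes typical of such lines, VIM had 427 FPKM in the library labelled TRIP13 shRNA and 442 FPKM in the control library, and CD44 had 112 FPKM against 115 FPKM in the control library. EGFR had 13.8 FPKM in the library labelled TRIP13 shRNA and 16.8 FPKM in the control library, and NES had 2.21 FPKM against 5.23 FPKM in the control library, 2.37-fold lower (2.03 to 2.76). The glial marker GFAP was at 0.119 FPKM in the library labelled TRIP13 shRNA and 0.392 FPKM in the control library, although the label gives brain as the tissue. Of the other marker lists, AIF1, CX3CR1, MOG, AQP4 and STMN2 had 0 reads in both libraries. Some markers on the same lists were present, namely the astrocyte gene SLC1A3 at 7.91 FPKM in the library labelled TRIP13 shRNA and 10.6 FPKM in the control library, the neuronal genes SNAP25 at 5.93 FPKM against 6.26 FPKM in the control library and SYT1 at 0.858 FPKM against 1.93 FPKM in the control library, and the macrophage gene CSF1R at 3.31 FPKM against 3.75 FPKM in the control library. The summed level of 4 fibroblast and pericyte markers was 31.3 FPKM in the library labelled TRIP13 shRNA and 50.9 FPKM in the control library, and of 4 endothelial markers 0.132 FPKM against 0.797 FPKM in the control library. COL1A1 made up most of the fibroblast and pericyte sum, at 27.4 FPKM in the library labelled TRIP13 shRNA and 29.4 FPKM in the control library. The other members had lower values, PDGFRB at 1.74 FPKM in the library labelled TRIP13 shRNA and 12.4 FPKM in the control library, LUM at 2.08 FPKM against 7.55 FPKM in the control library and DCN at 0.133 FPKM against 1.55 FPKM in the control library. The part of these markers in the results below was not tested. In bulk RNA, fewer cells that express a gene and less of its RNA per cell cannot be told apart.

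After 1 was added to each FPKM, the log2 of the quotient, library labelled TRIP13 shRNA over control, was taken as the log2 ratio. Sizes were compared over the 10671 protein-coding genes whose mean FPKM was 1 or more. The added 1 understates differences of weakly expressed genes. A gene was called higher or lower at a log2 ratio of at least 1 or at most -1. Of the 10 genes 9 passed the filter, and ASNS did not. Of these 9, STC2 was the 1 called higher, beside 2.17% of all tested genes, and STC1 and DDIT4 were the 2 called lower, beside 4.19%. Nothing is read from these shares, because this comparison was used to choose the genes. Over all tested genes 232 were called higher and 447 lower, so 34.2% of the calls were higher. That share was 25.8% with each library divided by its own total, 22.5% after rescaling to TPM and 19.7% with the median ratio set to 1. All tested genes had a median log2 ratio of 0.12, with 60.2% above 0.

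**Figure D2:**
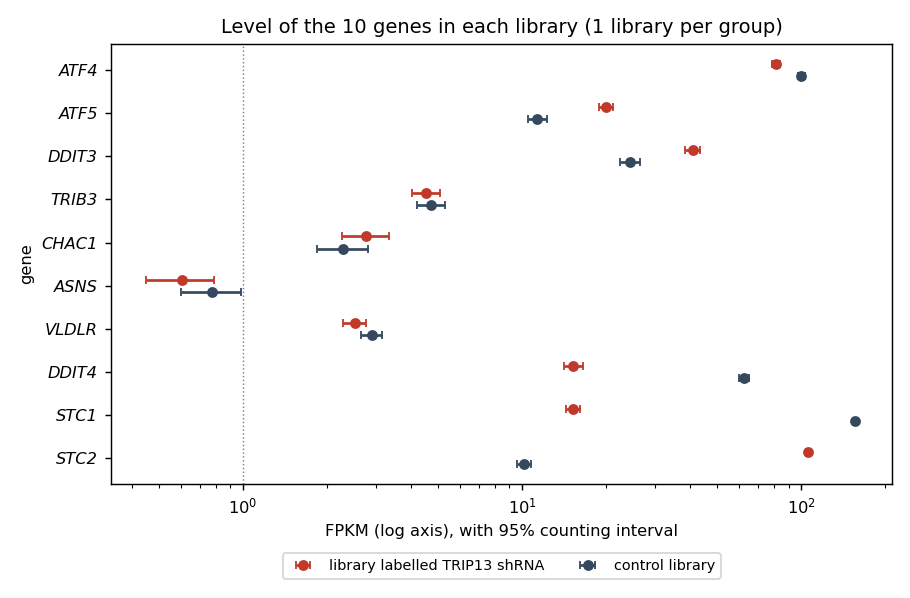
FPKM of the 10 genes on a log axis, with the library labelled TRIP13 shRNA in red above the control library in dark blue, and bars for the exact Poisson 95% counting interval. STC2 and STC1 exchange places, DDIT4 is lower in the library labelled TRIP13 shRNA, and the other genes differ by less than 2-fold, with ASNS below the dotted line at 1 FPKM.

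The sharpest contrast lay within the stanniocalcins, a pair of secreted glycoproteins named after the fish hormone that lowers blood calcium. STC2 (ENSG00000113739, hg38 chr5:173314713-173329503, minus strand) had 106 FPKM in the library labelled TRIP13 shRNA and 10.2 FPKM in the control library, from 12567 and 1208 reads. It was 10.4-fold higher (9.81 to 11.0), with a log2 ratio of 3.26, the fourth highest of all tested genes. STC1 (ENSG00000159167, hg38 chr8:23841915-23854807, minus strand) went the other way, at 15.2 FPKM in the library labelled TRIP13 shRNA and 155 FPKM in the control library, from 1224 and 12487 reads. It was 10.2-fold lower (9.62 to 10.8), with a log2 ratio of -3.27, 14th from the lowest. The paralogs thus differed by nearly the same factor in opposite directions. No exon of STC1 or STC2 is shared with another annotated gene.

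The balance between the paralogs turned over between the libraries. STC2 stood at 6.95 times the FPKM of STC1 (6.55 to 7.38) in the library labelled TRIP13 shRNA. In the control library STC1 stood at 15.3 times the FPKM of STC2 (14.4 to 16.2). STC2 made up 87.4% of the summed FPKM of both genes in the library labelled TRIP13 shRNA, against 6.15% in the control library. The sum itself was 121 FPKM in the library labelled TRIP13 shRNA and 165 FPKM in the control library, so it differed far less than either gene. Among protein-coding genes ordered by FPKM, STC2 was at place 334 in the library labelled TRIP13 shRNA, against place 4215 in the control library. STC1 was at place 3168 in the library labelled TRIP13 shRNA, against place 170 in the control library.

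The genes next to STC2 in the order of log2 ratios were CGB8 and ID1 above it and ID2 and KBTBD11 below. With 1 library per group this order is the only measure of a like pattern. ID1, an inhibitor of basic helix-loop-helix factors, had 146 FPKM in the library labelled TRIP13 shRNA and 12.8 FPKM in the control library, close to STC2 in both level and ratio. ID2 of the same family had 17.4 FPKM in the library labelled TRIP13 shRNA and 1.83 FPKM in the control library. KBTBD11 had 7.87 FPKM in the library labelled TRIP13 shRNA and 0.6 FPKM in the control library. CGB8, a chorionic gonadotropin beta gene with near-identical copies, rests on 235 reads in the library labelled TRIP13 shRNA and 4 reads in the control library and is uncertain.

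Stanniocalcins bind and inhibit the pappalysins, secreted proteases that cut IGF binding proteins and so free insulin-like growth factors. Of 7 genes of this axis 5 passed the filter. Of these, 0 were called higher, beside 2.17% of all tested genes, and 2 lower, beside 4.19%. Their median log2 ratio was -0.45. This median was -1.66 when the mean FPKM had to reach 5, which only PAPPA and IGFBP4 did. It was 0 with no filter, where genes with 0 reads are also counted. Both genes called lower are pappalysin substrates. IGFBP4 had 1.01 FPKM in the library labelled TRIP13 shRNA and 13.6 FPKM in the control library, and IGFBP5 had 5 reads in the library labelled TRIP13 shRNA against 453 in the control library. The proteases differed less. PAPPA stood at 11.6 FPKM in the library labelled TRIP13 shRNA and 16.3 FPKM in the control library, and PAPPA2 at 1.31 FPKM against 1.07 FPKM in the control library. IGF1R, the receptor, stood at 2.75 FPKM in the library labelled TRIP13 shRNA and 2.67 FPKM in the control library, and its log2 ratio of 0.03 turned below 0 under each of the other scalings. The ligand IGF1 and the IGF2 entry ENSG00000167244 had 0 reads in both libraries. Any further entry under the symbol IGF2 was left out, so the level of this ligand is uncertain.

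**Figure D3:**
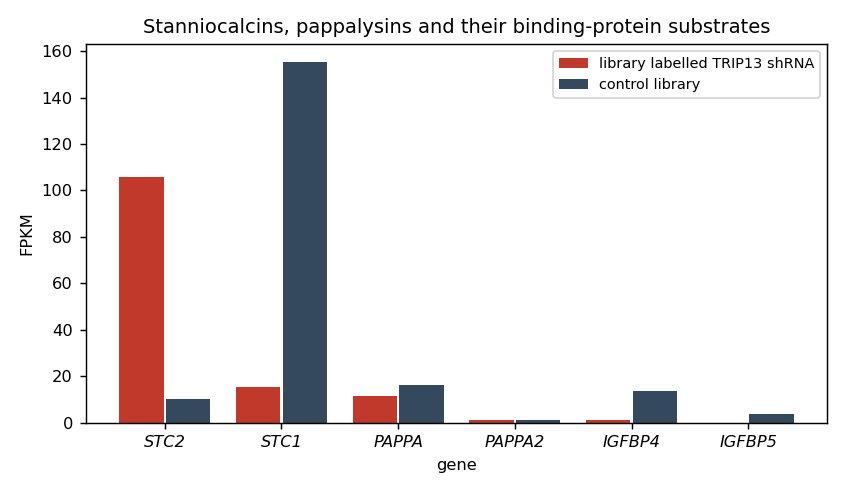
FPKM of STC2, STC1, the pappalysins PAPPA and PAPPA2 and the binding proteins IGFBP4 and IGFBP5, as bars from 0 for the library labelled TRIP13 shRNA (red, left) and the control library (dark blue, right), 1 library each. STC2 dominates in the library labelled TRIP13 shRNA and STC1 in the control library.

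The transcription factors of the set differed in direction. ATF4 (ENSG00000128272, hg38 chr22:39519695-39522685, plus strand) had 81.1 FPKM in the library labelled TRIP13 shRNA and 99.95 FPKM in the control library, from 3952 and 4870 reads. Its ratio of 0.811 (0.778 to 0.846) lay below 1, with a log2 ratio of -0.30. ATF5, a related bZIP factor under the same kind of translational control, had 20.0 FPKM in the library labelled TRIP13 shRNA and 11.3 FPKM in the control library, a ratio of 1.76 (1.60 to 1.95). DDIT3, which encodes the stress factor CHOP, had 40.8 FPKM in the library labelled TRIP13 shRNA and 24.4 FPKM in the control library, a ratio of 1.67 (1.51 to 1.85). ATF5 and DDIT3 were thus higher by similar factors, with log2 ratios of 0.77 and 0.72 that stay under the 2-fold limit, while ATF4 was slightly lower. The FPKM of DDIT3 was 0.503 of that of ATF4 in the library labelled TRIP13 shRNA, against 0.244 in the control library.

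Overlapping annotation limits both of these higher values, since the strand setting of the counting is not given in the sources used here. In GENCODE release 29, 23.7% of the exon length of ATF5 (hg38 chr19:49928702-49933935) is shared with IL4I1, NUP62 and MIR4751. NUP62, on the opposite strand, had a log2 ratio of 0.56 and IL4I1 of -0.63. For DDIT3 (hg38 chr12:57516588-57521737) 39.6% is shared with MARS, MBD6 and AC022506.1, and MARS and MBD6 had log2 ratios of 0.29 and 0.19. The share of ATF5 and DDIT3 reads that fell in those exons was not tested. If none had, the remaining exons would give DDIT3 at 67.6 FPKM in the library labelled TRIP13 shRNA and 40.3 FPKM in the control library, or 0.833 of the level of ATF4 in the library labelled TRIP13 shRNA, against 0.404 in the control library. ATF5 would stand at 26.2 FPKM in the library labelled TRIP13 shRNA and 14.9 FPKM in the control library. The exons of ATF4, TRIB3 and CHAC1 are shared with no other gene.

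TRIB3, CHAC1 and ASNS, well-known ATF4 targets, had few reads in both libraries, and the intervals of their ratios took in 1. TRIB3 (hg38 chr20:362835-397559, plus strand), a pseudokinase that feeds back on ATF4 and CHOP, had 4.54 FPKM in the library labelled TRIP13 shRNA and 4.72 FPKM in the control library. At 302 and 314 reads, the interval of its ratio of 0.962 (0.819 to 1.13) took in 1. CHAC1 (hg38 chr15:40952962-40956519, plus strand) had 2.76 FPKM in the library labelled TRIP13 shRNA and 2.28 FPKM in the control library, a ratio of 1.21 (0.907 to 1.61). Its 110 and 91 reads leave room for a difference of either sign.

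ASNS makes asparagine and is a gene long used to study the response to amino acid shortage. It was the weakest of the set, at 0.602 FPKM in the library labelled TRIP13 shRNA and 0.776 FPKM in the control library, from 52 and 67 reads, a ratio of 0.776 (0.530 to 1.13). These values are uncertain, because 44.6% of its exon length (hg38 chr7:97852118-97872542) is shared with AC079781.5, a transcript on the same strand. If no read from the shared exons had been counted, the remaining exons would give 1.09 FPKM in the library labelled TRIP13 shRNA and 1.40 FPKM in the control library. The ratio would not change. This calculation cannot give the level of transcripts that lie mainly in the shared exons, so the level of ASNS stays uncertain. By FPKM as deposited, the 2 genes of the set whose promoters carry the composite element, ASNS and CHAC1, were 2 of the 4 least abundant in each library. The place of ASNS carries the same uncertainty as its level.

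DDIT4 and VLDLR link the set to nutrient signalling and lipid uptake. DDIT4 (hg38 chr10:72273920-72276036, plus strand), an inhibitor of the growth kinase complex mTORC1, had 15.2 FPKM in the library labelled TRIP13 shRNA and 62.4 FPKM in the control library, from 608 and 2488 reads. It was 4.09-fold lower (3.74 to 4.48), with a log2 ratio of -1.96. DDIT4-AS1 shares 41.2% of its exon length on the opposite strand and had 0 reads in both libraries. VLDLR (hg38 chr9:2621834-2660053, plus strand), a receptor for lipoproteins and reelin, had 2.51 FPKM in the library labelled TRIP13 shRNA and 2.88 FPKM in the control library, from 455 and 522 reads. Its ratio was 0.872, with an interval of 0.767 to 0.990 that ended just below 1. VLDLR-AS1 shares 7.90% of its exon length on the opposite strand.

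**Figure D4:**
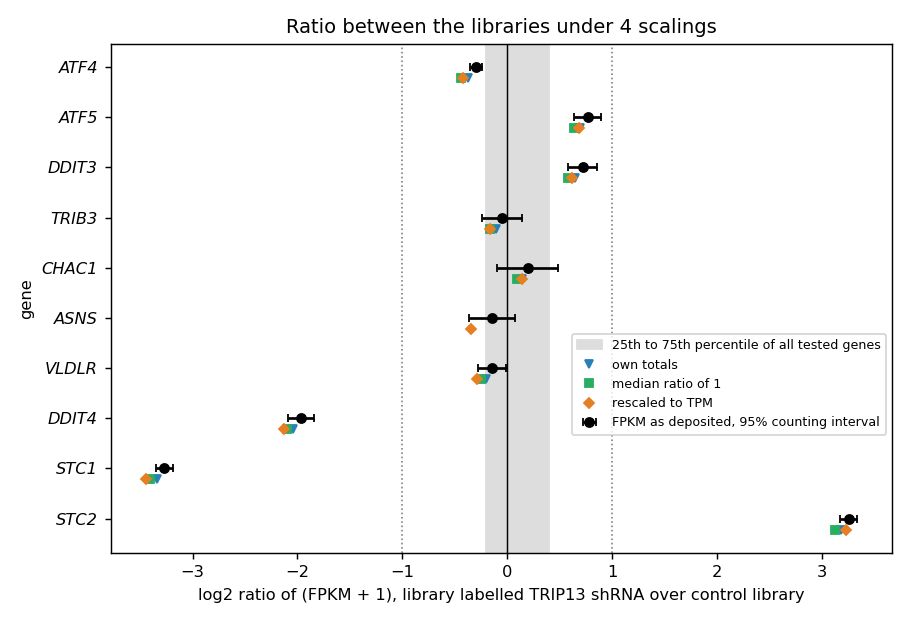
Log2 ratio of each gene (library labelled TRIP13 shRNA over control library) with FPKM as deposited and its 95% counting interval in black, and under 3 other scalings in colour. Dotted lines mark -1 and 1, and the grey band runs from the 25th to the 75th percentile of all tested genes. ATF5, DDIT3 and STC2 lie right of the band, ATF4, DDIT4 and STC1 left of it, and no scaling shown moves a gene across 0. For ASNS, which did not pass the filter with FPKM as deposited, TPM is the only other scaling shown.

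The order of the genes by FPKM differed between the libraries at its upper end. In the library labelled TRIP13 shRNA it ran STC2, ATF4, DDIT3, ATF5, DDIT4, STC1, TRIB3, CHAC1, VLDLR and ASNS. In the control library it ran STC1, ATF4, DDIT4, DDIT3, ATF5, STC2, TRIB3, VLDLR, CHAC1 and ASNS. Some neighbours did not differ beyond their exact Poisson intervals. In the library labelled TRIP13 shRNA these were DDIT4 (14.1 to 16.5 FPKM) with STC1 (14.4 to 16.1 FPKM), and CHAC1 (2.27 to 3.32 FPKM) with VLDLR (2.29 to 2.76 FPKM). In the control library they were ATF5 (10.5 to 12.2 FPKM) with STC2 (9.61 to 10.8 FPKM), and VLDLR (2.64 to 3.14 FPKM) with CHAC1 (1.84 to 2.80 FPKM). ATF4 held the second place in both. If no read from shared exons had been counted, DDIT4 would stand at 25.9 FPKM in the library labelled TRIP13 shRNA and 106 FPKM in the control library, above ATF4 in the control library.

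Upstream start codons in the leader, a feature of several transcripts translated under stress, were counted in the principal coding transcript of each gene in GENCODE release 29. They were present in 6 of the 10 genes, beside 52.8% of 19545 transcripts over all coding genes. Each of these 6 had at least 2, beside 33.2% of all transcripts. The ATF4 leader of 882 bases held 7, with 2 frames running into the coding sequence. The ATF5 leader of 582 bases held 6, with 1 such frame, and the DDIT3 leader of 209 bases held 2, also with 1 such frame. Such overlapping frames occur in 17.5% of all transcripts. STC2 had the longest leader of the set, 1310 bases against a median of 187 over all transcripts, with 11 upstream start codons that all close before the coding sequence. DDIT4, STC1, VLDLR and CHAC1 had 0. Leaders depend on the transcript chosen, and these libraries measured transcripts and not translation.

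None of the genes listed upstream of ATF4 reached the 2-fold limit. Over all tested genes 2.17% were called higher and 4.19% lower, so 0 calls in such short lists lie near that background. Of 8 genes for eIF2 kinases and their sensors, 8 were tested, 0 were called, 4 lay above 0 and 4 below, with a median log2 ratio of -0.00375. The counting intervals of 2 lay above 1 and of 3 below 1. EIF2AK4, the amino acid sensor GCN2, had 7.4 FPKM in the library labelled TRIP13 shRNA and 9.74 FPKM in the control library, and EIF2AK3, the endoplasmic reticulum kinase PERK, 3.15 FPKM against 4.2 FPKM in the control library. At the other end, GCN1, which activates GCN2, had 32.8 FPKM in the library labelled TRIP13 shRNA and 24.6 FPKM in the control library, and EIF2AK2, the RNA-activated kinase PKR, 12.3 FPKM against 10.6 FPKM in the control library. All 10 genes of eIF2, its exchange factor eIF2B and its phosphatase lay above 0, although EIF2B4 at 0.07 turned below 0 with the median ratio set to 1 and under TPM. None of the 10 was called. Their median was 0.33, and 9 of 10 lay above the median of all tested genes. EIF2B3 (9.26 FPKM in the library labelled TRIP13 shRNA and 4.84 FPKM in the control library) and EIF2B1 (24.5 FPKM against 13.7 FPKM in the control library) had the highest log2 ratios. EIF2B4 and EIF2S3 had the lowest, at 0.07 and 0.19.

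The next list held factors related to ATF4 or known to pair with it. Of 16 ATF, CREB and C/EBP genes tested, 0 were called higher, beside 2.17% of all tested genes, and 2 lower, beside 4.19%. The median was -0.01, and the 2 called genes, CEBPD and ATF3, give no direction for the list. CEBPD had 3.41 FPKM in the library labelled TRIP13 shRNA and 19.8 FPKM in the control library. ATF3, an early stress factor induced by ATF4, had 3.33 FPKM in the library labelled TRIP13 shRNA and 9.23 FPKM in the control library, opposite in direction to DDIT3 and ATF5. CREB3L2 and CEBPG had the highest log2 ratios of the list, 0.42 and 0.39. Of the paralogs of TRIB3, TRIB2 stood at 6.74 FPKM in the library labelled TRIP13 shRNA and 27.6 FPKM in the control library and TRIB1 at 5.94 FPKM in the library labelled TRIP13 shRNA and 9.81 FPKM in the control library. TRIB2 was called lower, at a log2 ratio of -1.89, and TRIB3 was not called.

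The metabolic targets of ATF4 were read against the 60.2% of all tested genes above 0. Of 12 amino acid synthesis enzymes tested, 9 lay above 0, 1 was called higher, beside 2.17% of all tested genes, and 1 lower, beside 4.19%. Their median was 0.24, and 8 lay above the median of all tested genes. PSAT1, a serine synthesis enzyme, had 52.8 FPKM in the library labelled TRIP13 shRNA and 19.2 FPKM in the control library, and MTHFD1L of mitochondrial folate metabolism had 15.0 FPKM against 8.55 FPKM in the control library. CTH, which makes cysteine from cystathionine, went the other way at 3.72 FPKM in the library labelled TRIP13 shRNA and 11.1 FPKM in the control library. GPT2, an alanine aminotransferase, had 5.19 FPKM in the library labelled TRIP13 shRNA and 6.46 FPKM in the control library. Amino acid transporters had a median of 0.18 over 9 genes, 0 called, 7 above 0 and 5 above the median of all tested genes. That median was 0.046 with the median ratio set to 1 and 0.019 under TPM, and 5 of the 9 then lay above 0. Among them were SLC7A1 at 31.1 FPKM in the library labelled TRIP13 shRNA and 15.7 FPKM in the control library and SLC7A5 at 21.7 FPKM against 11.5 FPKM in the control library. SLC38A2 had the lowest log2 ratio of that list, -0.93, which passed the limit as a lower call at -1.01 with own totals, -1.07 with the median ratio set to 1 and -1.06 under TPM, and SLC43A1 followed at -0.11.

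All 13 listed cytosolic tRNA synthetase genes lay above 0. All 13 counting intervals lay above 1, beside 49.0% of all tested genes. The list does not hold every gene of the family and was chosen with earlier results of these data known. Of the 13, 0 were called, beside 2.17% of all tested genes called higher and 4.19% called lower. With the median ratio of 1.10 as the baseline, 10 of the 13 intervals lay above it, beside 37.9% of all tested genes. VARS, at 0.11, turned below 0 with the median ratio set to 1 and under TPM. The median log2 ratio was 0.35, against 0.21 with the median ratio set to 1 and 0.24 under TPM, and 12 of 13 lay above the median of all tested genes. IARS had 65.3 FPKM in the library labelled TRIP13 shRNA and 41.0 FPKM in the control library, and SARS 71.7 FPKM against 46.9 FPKM in the control library, while VARS and CARS had the lowest log2 ratios, 0.11 and 0.18.

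Composite elements were frequent at these synthetase genes. RefSeq windows were found for 10 of the 13, and 7 of the 10 held TGATGNAA, compared with 4.46% of all symbols. The list was drawn up around ATF4 and not for the whole family, so this share describes the listed genes only. The lines below show each element in capitals with 10 bases on either side, read along the strand on which it reads TGATGNAA. The genes are shown for their match, and they were named after their values were seen.
AARS, chr16:70289676-70289703, plus strand: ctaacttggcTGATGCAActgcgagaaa
GARS, chr7:30594835-30594862, minus strand: gctcggagcaTGATGAAAtcgccgcgta
MARS, chr12:57488054-57488081, minus strand: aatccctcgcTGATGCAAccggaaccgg
NARS, chr18:57621805-57621832, minus strand: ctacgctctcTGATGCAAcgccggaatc
TARS, chr5:33440957-33440984, minus strand: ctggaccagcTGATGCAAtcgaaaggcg
IARS, chr9:92293693-92293720, plus strand: cgcacggaggTGATGCAAcgcgctgaaa
CARS, chr11:3057408-3057435, plus strand: tcctagaatcTGATGCAAccgccgcccc
The element reads TGATGCAA in 6 of the 7 genes and TGATGAAA in GARS, and this second form also stands in ASNS above. The log2 ratios of these 7 synthetase genes ranged from 0.18 for CARS to 0.66 for IARS. Among the transporters 5 of 9 genes with a window held the element, SLC7A1, SLC1A4, SLC3A2, SLC1A5 and SLC38A1, and among the ATF, CREB and C/EBP genes 5 of 14, ATF3 among them. The counts in the other lists were 2 of 8 amino acid synthesis enzymes, 1 of 10 other stress response targets, 1 of 17 genes of the IRE1 and ATF6 arms, 1 of 9 in the eIF2 list, 1 of 9 in the mTORC1 list and 0 in the remaining 6 lists, which makes 23 of 122 genes in all. The element was thus present in genes that were higher, such as SLC7A1 at 0.94, and in ATF3, which was lower at -1.24.

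**Figure D5:**
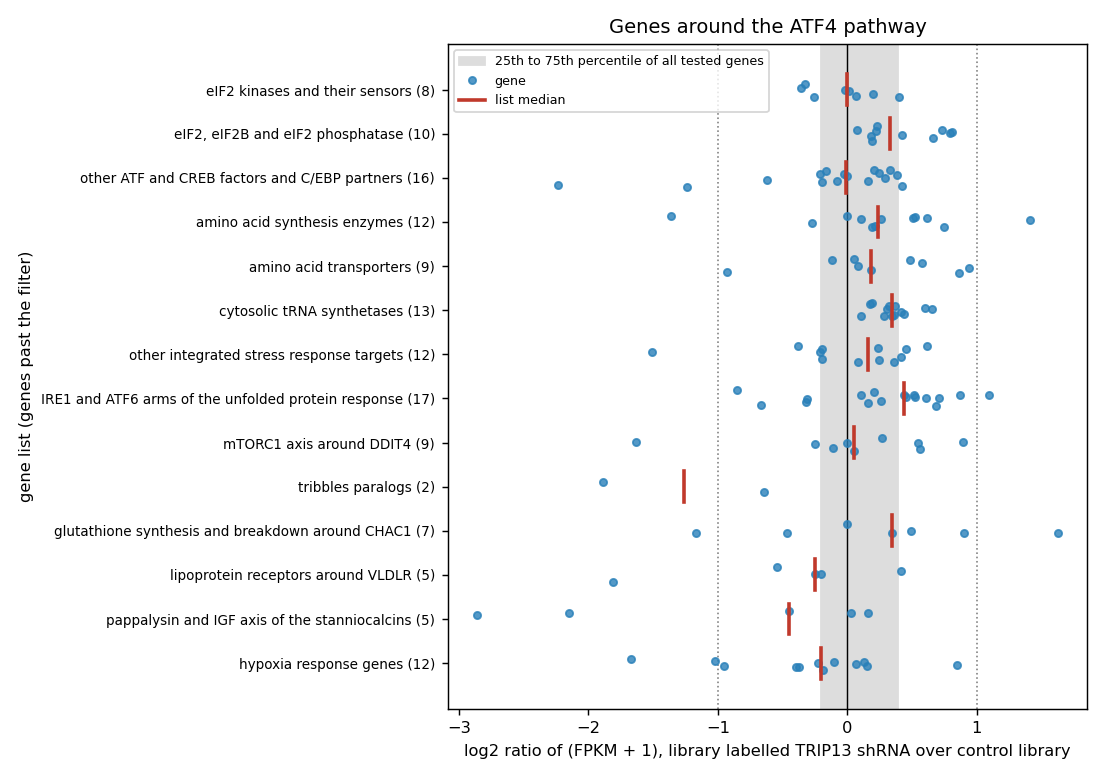
Log2 ratio (library labelled TRIP13 shRNA over control library) of each gene past the filter in 14 lists around ATF4, with a red bar at the list median, dotted lines at -1 and 1 and a grey band for the 25th to 75th percentile of all tested genes. The listed synthetases form a tight group right of 0, although VARS turns below 0 with the median ratio set to 1 and under TPM. The ATF, CREB and C/EBP list and the stanniocalcin axis reach far to the left.

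Other targets of the integrated stress response went both ways. Of 12 tested, 7 lay above 0, beside 60.2% of all tested genes, and 1 was called lower, beside 4.19%. Their median of 0.16 turned to -0.16 under TPM. GDF15, a secreted stress cytokine, had 23.6 FPKM in the library labelled TRIP13 shRNA and 68.9 FPKM in the control library. VEGFA, a vessel growth factor, had 64.8 FPKM in the library labelled TRIP13 shRNA and 84.5 FPKM in the control library. SESN2, which like DDIT4 restrains mTORC1, had 18.3 FPKM in the library labelled TRIP13 shRNA and 11.6 FPKM in the control library, opposite to DDIT4, and EIF4EBP1, a repressor of translation, had 103 FPKM against 74.9 FPKM in the control library. The arms of the unfolded protein response that do not run through ATF4 also held both directions. Of 17 genes 13 lay above 0, 1 was called higher, beside 2.17% of all tested genes, and 0 lower, beside 4.19%. Their median was 0.44, and 12 lay above the median of all tested genes. The call of SDF2L1 at 1.09 was lost with the median ratio set to 1, at 0.96, and EDEM1 at -0.85 was called lower under TPM, at -1.01. The chaperone cofactor SDF2L1 had 55.2 FPKM in the library labelled TRIP13 shRNA and 25.3 FPKM in the control library, and the lectin chaperone CALR 639 FPKM against 349 FPKM in the control library. EDEM1, of the degradation pathway, had 9.4 FPKM in the library labelled TRIP13 shRNA and 17.7 FPKM in the control library and ERN1, the sensor IRE1, 1.74 FPKM against 3.35 FPKM in the control library.

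Genes close in function to DDIT4, CHAC1 and VLDLR were read next. In the mTORC1 list 0 of 9 were called higher, beside 2.17% of all tested genes, and 1 lower, beside 4.19%. The gene called lower was DDIT4L, the paralog of DDIT4, with 32 reads in the library labelled TRIP13 shRNA against 221 in the control library. The list median of 0.05 turned below 0 under own totals, TPM and a median ratio of 1. It was 0.56 when the mean FPKM had to reach 5, which only some of the 9 genes did. RPTOR and RHEB, a subunit and an activator of mTORC1, had the highest log2 ratios, 0.89 and 0.56. AKT1S1, which restrains the complex, had -0.25. Among 7 glutathione genes CHAC2, the paralog of CHAC1, was called higher at 9.61 FPKM in the library labelled TRIP13 shRNA and 2.42 FPKM in the control library, from 246 and 62 reads. GCLM, a subunit of the first enzyme of glutathione synthesis, was called lower at 7.32 FPKM in the library labelled TRIP13 shRNA and 17.7 FPKM in the control library. These 2 calls stand beside 2.17% of all tested genes called higher and 4.19% called lower. The median of the glutathione list was 0.35, with GGCT at 0.90 and GPX4 at -0.46. Of the lipoprotein receptor genes, LRP1 had 83.3 FPKM in the library labelled TRIP13 shRNA and 122 FPKM in the control library. LRP8, a relative of VLDLR, had 12.4 FPKM in the library labelled TRIP13 shRNA and 14.4 FPKM in the control library. LRPAP1, the chaperone of these receptors, had the highest log2 ratio, 0.41, followed by LRP8 at -0.20.

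Hypoxia response genes were set beside STC1, STC2, DDIT4 and VLDLR. Of 12 tested, 0 were called higher, beside 2.17% of all tested genes, and 2 lower, beside 4.19%. Of these 12, 4 lay above 0, beside 60.2% of all tested genes, and the median was -0.20. NDRG1, at -0.95, was a further lower call at -1.02 with own totals, -1.08 with the median ratio set to 1 and -1.11 under TPM, and SLC2A1, at 0.07, turned below 0 under each. ALDOC, a glycolytic aldolase, had 6.38 FPKM in the library labelled TRIP13 shRNA and 22.5 FPKM in the control library, and BNIP3L, a mitophagy receptor, 21.9 FPKM against 45.4 FPKM in the control library. LOX, a collagen cross-linking enzyme, had the highest log2 ratio at 0.85, followed by BNIP3 at 0.15. STC1 and DDIT4 shared the direction of ALDOC and BNIP3L, and STC2 did not. CA9, a carbonic anhydrase widely used to mark hypoxic cells, had 7.94 FPKM in the library labelled TRIP13 shRNA and 10.6 FPKM in the control library; it was named after its values were seen.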

How the data were processed

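Gene expression was measured by RNA sequencing in 2 libraries, 1 per group, so no test was run and no p-value is given. The authors deposited FPKM values for 58735 genes, 19951 of them protein-coding. Per the submitters' processing notes, build hg38 was used with edgeR, HISAT2 (version 2.0.5) and featureCounts (version 1.5.0-p3), whose roles and settings are not stated there. Annotation and strandedness are likewise not given in the sources used here, but identifiers, positions and strands of all 58735 genes equalled those of GENCODE release 29.

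FPKM multiplied by exon length was a whole multiple of 51.6 in both libraries, 100% of values within 0.001 of a read, which gave the reads behind each value. Ratios have 95% Clopper-Pearson intervals from the split of those reads, and levels exact Poisson intervals. PCR copies were not marked by molecular identifiers, so these intervals cover counting error only. A pseudocount of 1 FPKM was added before the log2 ratio, and protein-coding genes whose mean FPKM was 1 or more were tested. The genes, the 14 pathway lists, the 7 marker lists and the alternatives were chosen with earlier results of these data known. Named genes were the 10 genes, TRIP13, the 2 neighbours of STC2 on each side in log2 ratio, the 2 highest and 2 lowest tested genes of each list, and further called genes of lists with at most 4. Synthetase, transporter and factor genes named for their promoter match, neighbours on the chromosome, genes named for 0 reads, marker genes, NDRG1, SLC2A1 and DEPTOR were added after their values were seen. A result that the naming rule selected is not reported here.

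Promoters and motif counts come from RefSeq (GRCh38.p14), matched by current symbol for 122 of 155 listed genes. The calculations were tested on simulated counts. Software was Python 3.11.15 with matplotlib 3.10.9, scipy 1.17.1, pandas 2.3.3 and numpy 2.4.6.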

Additional observations from a re-analysis of the deposited data

How the results depend on the processing

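Over the 7 alternatives 1 of the 10 genes stayed called higher and 2 called lower, and no gene changed sign in any alternative whose filter it passed. The log2 ratio of STC2 ranged from 2.87 to 3.37, that of STC1 from -3.44 to -2.99 and that of DDIT4 from -2.13 to -1.73, with each low size under a pseudocount of 5. ATF5 ranged from 0.61 to 0.81, DDIT3 from 0.58 to 0.74 and ATF4 from -0.44 to -0.29. Of 62 alternative values of the genes, 47 lay inside the counting interval.

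The log2 ratio of TRIP13 was 0.90, against 0.77 with the median ratio set to 1 and 0.74 with a pseudocount of 5. The calls over all tested genes moved more. Those higher numbered 408 with a pseudocount of 0.1, 64 with a pseudocount of 5 and 139 with the median ratio set to 1, against 232. Those lower numbered 677 and 180 under these pseudocounts, 280 when the mean FPKM had to reach 5 and 956 under TPM, against 447. The cause was not tested.

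Of 91 alternative list medians, 80 stayed between the 25th and 75th percentile of their members without a change of sign, and 4 changed sign. The mTORC1 median of 0.05 was 0.56 when the mean FPKM had to reach 5 and changed to -0.044 once the median ratio was set to 1, -0.0010 with own totals and -0.036 under TPM, and that of the other stress response targets turned to -0.16 under TPM. The pappalysin and IGF axis median of -0.45 was -1.66 when the mean FPKM had to reach 5 and 0 with no filter. With a mean FPKM of 5 required, the mTORC1 and pappalysin medians rest on only part of the tested genes of each list. The transporter median of 0.18 was 0.046 with the median ratio set to 1 and 0.019 under TPM. The synthetase median of 0.35 was 0.21 with the median ratio set to 1, 0.27 with own totals and 0.24 under TPM. Setting the median ratio to 1 shifted the median of all genes by -0.12 and TPM also by -0.12. No paired analysis was possible because there is only 1 library per group. Depth limits CHAC1, ASNS and TRIB3, whose intervals include 1.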

Other observations

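Genes beside the 10 genes on the chromosome were read as values, with a window of 50000 bases on each side. STC1, STC2, VLDLR and ASNS had no tested protein-coding neighbour in that window. DDIT4, which was 4.09-fold lower, had ANAPC16 as its 1 tested neighbour, at 17.3 FPKM in the library labelled TRIP13 shRNA and 15.9 FPKM in the control library. ATF5 lay among genes of either direction, with TBC1D17 at 10.4 FPKM in the library labelled TRIP13 shRNA and 18.4 FPKM in the control library and NUP62 at 22.9 FPKM against 15.3 FPKM in the control library. CHAC1 had VPS18, at 30.8 FPKM in the library labelled TRIP13 shRNA and 19.98 FPKM in the control library, and INO80, at 9.64 FPKM against 7.11 FPKM in the control library, as neighbours. ATF4 had MIEF1 at 7.9 FPKM in the library labelled TRIP13 shRNA and 9.39 FPKM in the control library and RPS19BP1 at 13.2 FPKM against 12.9 FPKM in the control library.

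Several secreted or weakly expressed targets of the stress response lay below the filter. INHBE, an activin subunit, had 10 reads in the library labelled TRIP13 shRNA against 49 in the control library. SESN3, a sestrin of the mTORC1 list, had 35 reads in the library labelled TRIP13 shRNA and 194 reads in the control library, in the direction of DDIT4 and opposite to SESN2. DEPTOR of the same list went the other way, with 52 reads in the library labelled TRIP13 shRNA against 27 in the control library. Its ratio was 1.93 (1.19 to 3.19). FGF21, a stress hormone, had 2 reads in the library labelled TRIP13 shRNA against 0 in the control library, which is under the floor of 3 reads. CBS, which makes cystathionine upstream of CTH, had 2 reads in the library labelled TRIP13 shRNA against 16 in the control library. SLC6A9, a glycine transporter, had 40 reads in the library labelled TRIP13 shRNA and 119 reads in the control library.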
